A study of Mus musculus with 41 samples.

Results

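The nuclear genes of oxidative phosphorylation were taken as every gene symbol in the deposited count table that names a subunit of respiratory complexes I to IV or of ATP synthase (complex V). The patterns were Nduf followed by a, b, c, s or v and a number, Uqcr, Sdha to Sdhd, Cox4 to Cox8 and Atp5, with pseudogene symbols left out. This gave 84 of 24410 symbols: 37 of complex I, 4 of complex II, 8 of complex III, 18 of complex IV and 17 of complex V. Of these, 78 passed the filter on low counts and were tested among 15204 genes. The rule used only names, so Ndufa4 stands under complex I by its symbol, Atp5s and Atp5sl enter by name alone, and the subunits Cyc1 and Ndufab1 fall outside and are counted with the electron carriers.

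The respiratory chain passes electrons from NADH (complex I) and succinate (complex II) through ubiquinone, complex III and cytochrome c to oxygen at complex IV, and the proton gradient that results drives ATP synthase. Nearly all subunits are encoded in the nucleus and a few core subunits in mitochondrial DNA. Neural progenitors are known to lean on glycolysis, and neurons on oxidative phosphorylation. Some complex IV subunits have isoforms restricted to muscle, lung or testis.

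The study knocked out single genes with Cas9 in R1-iCas9 cells, mouse embryonic stem cells in which Cas9 can be induced, and differentiated them towards spinal cord neural progenitors. The 5 genotypes were Eed, Ezh2, Brd8 and Nr6a1 knockout (KO) and a non-targeting guide (NT), each sampled at days 7, 9 and 11. In all groups Cas9 was induced with doxycycline before the guides were transfected, 5 crRNAs were pooled per target, and the cells then received bFGF, CHIR99021, retinoic acid (RA) and Smoothened Agonist (SAG). Eed and Ezh2 encode parts of Polycomb repressive complex 2, Brd8 a bromodomain protein of the NuA4/TIP60 complex, and Nr6a1 an orphan nuclear receptor. Every group held 3 libraries except Nr6a1 KO at each day and Brd8 KO at day 9, which held 2, giving 41 libraries in 15 groups. The KO cells are transfected pools, and the transcript of the targeted gene did not fall past the threshold in its own KO on any of the 3 days. At day 11 its log2 fold change was 0.30 for Eed (adjusted p = 0.115), 0.37 for Ezh2 (adjusted p = 0.00736), -0.23 for Brd8 (adjusted p = 0.0939) and -0.28 for Nr6a1 (adjusted p = 0.603), in edgeR's quasi-likelihood test.

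Libraries held 8581285 to 38240227 counts, and the module took 0.314% to 0.406% of them. Levels are CPM on library sizes corrected by edgeR's TMM factors, and 3 counts correspond to 0.0785 to 0.35 CPM depending on the library, for counting error only. Replicate 3 of NT at day 11 and replicate 3 of Eed KO at day 11 agreed least with their own groups (highest Pearson correlation of log2 CPM 0.939 and 0.945). In the NT one 82 genes with a mean over 50 counts were listed at 0, against 19 and 17 in the other NT libraries of day 11. The neural progenitor and neuron markers were counted in every library: the 10 progenitor markers summed to 2040 CPM in Eed KO, 2369 CPM in Ezh2 KO, 2259 CPM in Brd8 KO, 2425 CPM in Nr6a1 KO and 2744 CPM in NT at day 11. Vim and Nes make up most of that sum, and 2 of the 10 progenitor markers passed as higher and 4 as lower in each of Eed, Ezh2 and Brd8 KO, with Pax6 at 75.5 CPM in Eed KO, 56.4 CPM in Ezh2 KO, 65.6 CPM in Brd8 KO and 16.5 CPM in NT. Libraries are bulk RNA, so fewer cells of a type and less RNA per cell cannot be told apart.

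Promoter sequences are shown first for some of the members named below: Ndufv3 and Ndufa3, higher at day 11, Atp5b, lower at day 11, and Sdhd and Uqcrh, higher in KO cells at day 11. They are RefSeq sequences on build GRCm38.p6, read 5′ to 3′ on the gene's strand, cut to the part of the 250 bases before the start that no annotated exon covers. Capitals mark a match to the ETS family motif CCGGAAG or its reverse complement CTTCCGG, and sequences without capitals hold no match to any of the 3 motifs searched.
Ndufv3 promoter, chr17:31519981-31520114, plus strand: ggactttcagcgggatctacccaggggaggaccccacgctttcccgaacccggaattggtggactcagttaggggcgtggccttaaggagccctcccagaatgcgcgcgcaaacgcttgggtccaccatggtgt
Ndufa3 promoter, chr7:3617123-3617372, plus strand: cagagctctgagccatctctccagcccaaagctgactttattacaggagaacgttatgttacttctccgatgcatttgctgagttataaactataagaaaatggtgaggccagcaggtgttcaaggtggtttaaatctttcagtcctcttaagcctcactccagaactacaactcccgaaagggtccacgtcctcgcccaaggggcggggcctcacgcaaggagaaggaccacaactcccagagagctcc
Atp5b promoter, chr10:128083057-128083272, plus strand: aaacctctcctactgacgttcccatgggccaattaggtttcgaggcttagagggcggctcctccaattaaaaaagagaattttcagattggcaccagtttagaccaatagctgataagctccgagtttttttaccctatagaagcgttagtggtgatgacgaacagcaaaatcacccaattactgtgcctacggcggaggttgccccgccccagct
Sdhd promoter, chr9:50603850-50603909, minus strand: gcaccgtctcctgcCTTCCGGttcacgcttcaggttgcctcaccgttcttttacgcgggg
Uqcrh promoter, chr4:116075072-116075268, minus strand: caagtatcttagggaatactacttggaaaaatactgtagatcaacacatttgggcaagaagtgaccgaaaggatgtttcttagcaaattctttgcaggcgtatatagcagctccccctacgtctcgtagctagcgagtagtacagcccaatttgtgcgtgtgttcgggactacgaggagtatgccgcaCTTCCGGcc
Of the 84 symbols, 69 had a RefSeq promoter window of 300 bases (250 before the start and 50 after). The NRF1 motif (GCGCA, any base, then GCGC), searched like the others on both strands, was in 16 of the 69 windows (23.2%) and in 4.78% of all 27025 windows. The ETS motif was in 15 (21.7%, against 9.12% of all windows), and the YY1 motif AAGATGG in 11 (15.9%, against 6.48%). Among the promoters printed, Sdhd also has an NRF1 match in its window and Ndufa3 a YY1 match after its start, both outside the printed bases. Of the members that passed in a KO against NT, Sdhb, Sdhd, Uqcrh and Cox8a had an ETS match. Atp5b, Atp5c1, Atp5g2, Cox6b2, Cox7b, Cox7c, Ndufa5 and Ndufc2 had none, and Uqcrb and Uqcrc2 had no window. A link between the motif and these differences was not tested. The median number of CpG dinucleotides, counted in the 250 bases before the start only, was 14 for the members and 6 for all promoters. A match describes the letters only.

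Levels within the module spanned the ubiquitous subunits, which were detected everywhere, and isoforms close to 0. Per kilobase of exon, averaged over the 41 libraries, Cox8a was highest at 136 CPM per kb, followed by Atp5a1, the α subunit of the ATP synthase head, at 132, Cox6b1 at 108 and Atp5b, the catalytic β subunit, at 107 CPM per kb. Exon length is that of all annotated exons of a gene joined, so it grows with the annotation. Atp5o, at 97.6 CPM, had no matched gene and is not ranked. The highest members of the other complexes were Uqcrfs1, the Rieske iron-sulfur protein, at 39.0, Ndufa4 at 38.3 and Sdhd, a membrane anchor of succinate dehydrogenase, at 36.8 CPM per kb. Among the tested members Ndufa4l2, a paralogue of Ndufa4 known from hypoxia, was lowest at 0.156 CPM per kb. It had 111 counts in all and was at 0 in 22 of the 41 libraries, so no fold is given for it.

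The isoforms known from muscle, lung and testis were at or near 0. Cox7b2 and Cox8c had 0 counts in all 41 libraries, and Cox8b had 3 counts in 1 library. Cox4i2 and Cox6a2 were at 0 in 33 libraries each, with 24 and 29 counts in all, and Cox7a1 was at 0 in 23 libraries with 56 counts in all. Their ubiquitous partners averaged 55.5 CPM (Cox4i1), 27.0 CPM (Cox6a1), 34.6 CPM (Cox7a2), 55 CPM (Cox7a2l), 47.6 CPM (Cox7b) and 84.1 CPM (Cox8a). The exception was Cox6b2, known as the testis form of the subunit that bridges the complex IV dimer: it averaged 6.18 CPM, against 76.5 CPM for Cox6b1, and was counted in 40 of 41 libraries. Muscle markers at day 11 summed to 202 CPM in Eed KO, 118 CPM in Ezh2 KO, 355 CPM in Brd8 KO, 58.4 CPM in Nr6a1 KO and 10.3 CPM in NT. The muscle isoforms Cox6a2, Cox7a1 and Cox8b stayed under the count filter and were not tested. In the same order Cox6a2 averaged 0.246, 0.0955, 0.149, 0 and 0 CPM at day 11, and Cox7a1 0.0819, 0.0166, 0.182, 0.251 and 0 CPM. The 1 library with Cox8b was of Brd8 KO at day 11. These levels rest on a few counts.

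Between day 7 and day 11 of the NT cells, most of the members that passed were lower, and complex V held the largest number of them. In NT cells 4 members were higher and 13 lower at day 11 than at day 7, 17 of 78 in all, while 45.2% of all tested genes passed the same threshold, 21.9% higher and 23.3% lower (adjusted p under 0.05, edgeR's quasi-likelihood test with Benjamini-Hochberg adjustment over all tested genes). Without replicate 3 of day 11 the count was 9 members, and without replicate 1 of day 7 it was 8. In complex I 4 of 37 members rose and 3 fell, and no member of the other complexes rose. In complex II 2 of 4 fell, in complex III 2 of 8, in complex IV 1 of 12 and in complex V 5 of 17. The median log2 fold change was -0.10 over the 78 members and -0.00 over all tested genes, and the median size of a change, whatever its sign, was 0.22 and 0.52. The 95% interval of the fold change lay within 1.5-fold in either direction for 56.4% of the members and 26% of all tested genes.

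**Figure D1:**
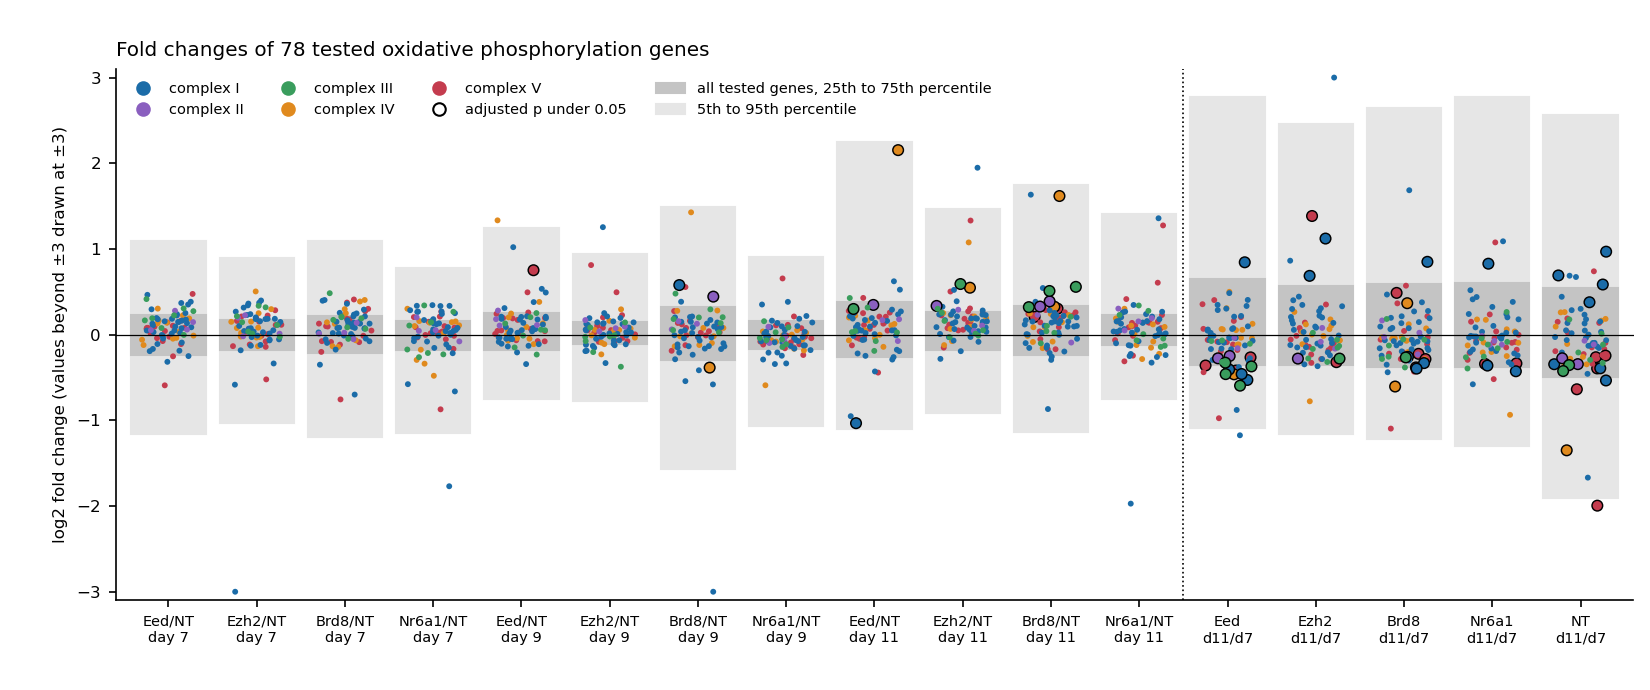
Log2 fold change of each of the 78 tested members (points, coloured by complex) in the 12 comparisons of a KO with NT of the same day and the 5 comparisons of day 11 with day 7, over grey boxes for the percentiles of all tested genes; large ringed points passed the threshold, and the 3 values past the axis, all of Ndufa4l2, are drawn at its edge. Most members sit close to 0, no point is ringed at day 7, and at day 11 the ringed points of Ezh2 and Brd8 KO lie above 0.

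Summed over all 84 members, NT cells had 3590.2 ± 84.5 CPM at day 7, 3608 ± 28.4 CPM at day 9 and 3233 ± 231 CPM at day 11 (SD, n = 3 each). For complex V the sums were 1531 ± 37.9, 1497 ± 13.9 and 1266 ± 93.5 CPM at days 7, 9 and 11. Atp5a1 and Atp5b made up most of them, with means of 433 and 480 CPM at day 7 and 361 and 365 CPM at day 11. For complex III the sums were 342 ± 23.0, 340.2 ± 3.32 and 290.5 ± 26.3 CPM, and for complex II 281 ± 10.6, 282 ± 6.01 and 249.5 ± 14.7 CPM. The sums of complexes II and V at day 11 lay below those at day 7 in every NT library. Complex I had 907 ± 35.0, 965 ± 12.6 and 912 ± 63.3 CPM, and complex IV 529 ± 22.2, 523.5 ± 25 and 515 ± 37.6 CPM, and in both the day 7 and day 11 libraries overlapped.

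**Figure D2:**
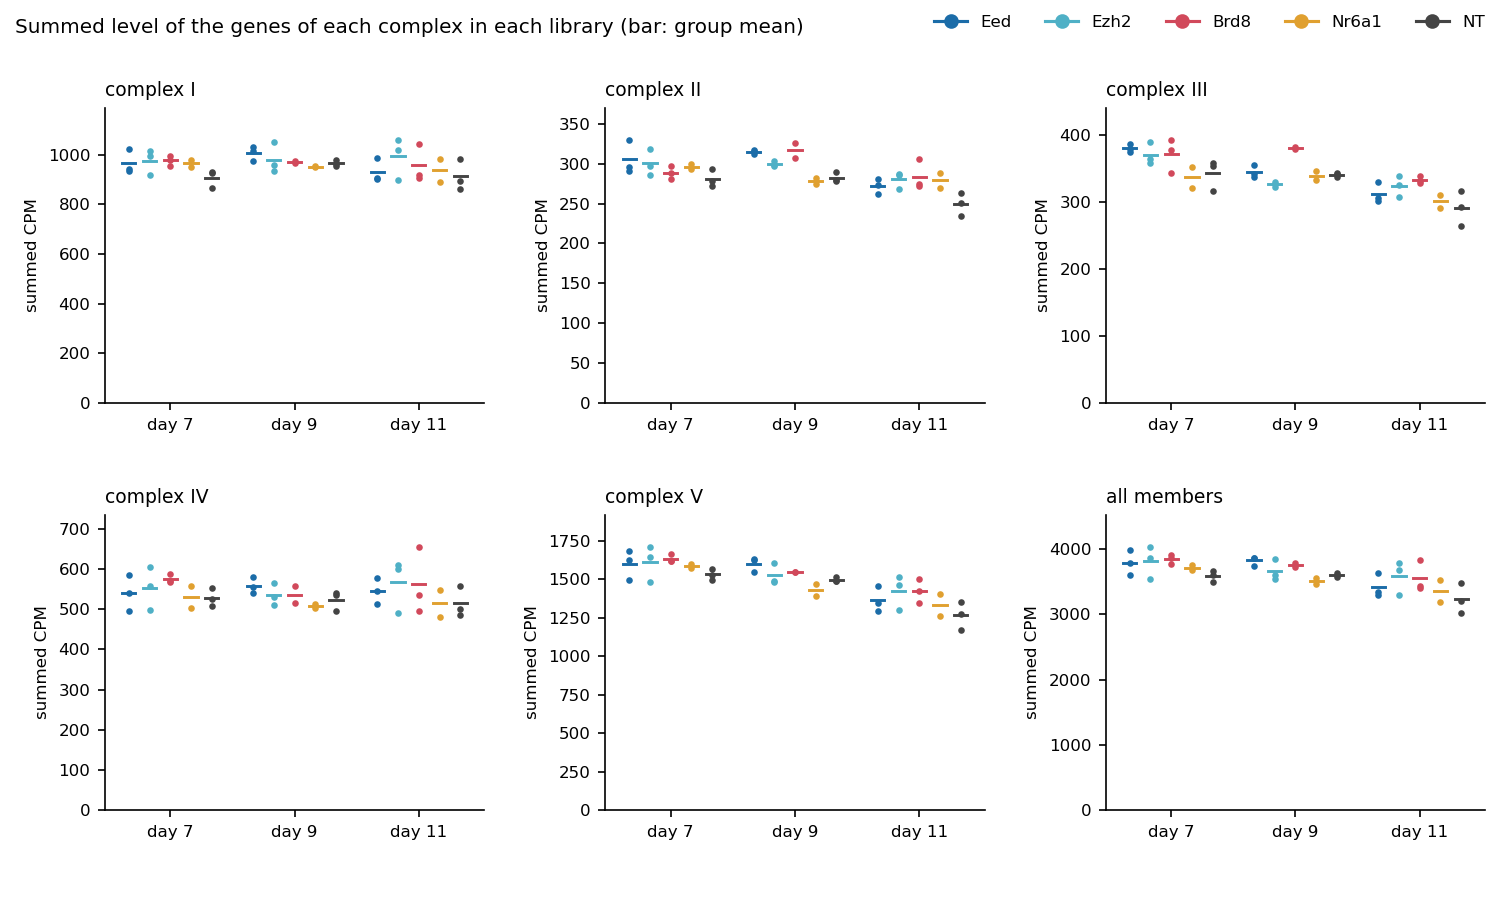
Summed CPM of the members of each complex, and of all members, by day and genotype (points are libraries, bars the group mean). Complex V, most of it Atp5a1 and Atp5b, averaged 1266 CPM in NT at day 11 and 1531 CPM at day 7, while the libraries of complexes I and IV overlapped between those days.

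Ndufv3, an accessory subunit of the NADH-oxidising module of complex I, showed the largest rise past the threshold in NT cells. NT cells had 62.6, 68.5 and 54.2 CPM at day 11, against 34.3, 28.9 and 31.2 CPM at day 7, with 45, 39.8 and 42.6 CPM at day 9. The 3 days did not overlap. The log2 fold change of Ndufv3 at day 11 against day 7 was 0.97 ± 0.13 in NT (SE, adjusted p = 1.15e-07), and it rose in all 4 KO genotypes too: 0.84 in Eed KO, 0.85 in Brd8 KO and 0.83 in Nr6a1 KO, and in Ezh2 KO its level was 2.18-fold higher at day 11. The days did not overlap in any genotype. The call held in every alternative fit of all 5 comparisons. Ndufv3 did not differ past the threshold between any KO and NT on any day, and at day 11 its log2 fold change against NT was -0.29 in Eed KO (95% interval -0.55 to -0.03, adjusted p = 0.103). The gene lies at chr17:31520115-31531331 on the plus strand, and no exon of another gene overlaps its exons.

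The other complex I members that rose in NT cells were Ndufa3 (log2 fold change 0.69 ± 0.24 SE, adjusted p = 0.0153), Ndufs8, an iron-sulfur core subunit (0.58 ± 0.24, adjusted p = 0.0432), and Ndufc2 (0.38 ± 0.15, adjusted p = 0.0338). Ndufa3 had 15.6, 24.8 and 23.3 CPM at day 11, against 9.95, 14.6 and 15.2 CPM at day 7. The days did not overlap, but the lowest Ndufa3 library of day 11 stood close to the highest of day 7, and Ndufa3 missed the threshold without replicate 2 or 3 of day 11 or replicate 1 of day 7 (adjusted p up to 0.12). Ndufa3 also rose in Ezh2 KO (0.69, adjusted p = 0.017), where the days overlapped and the call held in 9 of 13 alternatives (adjusted p up to 0.143). In the opposite direction stood Ndufb8 (-0.53, adjusted p = 0.00734) and Ndufv1, which binds FMN (-0.39, adjusted p = 0.0363). Ndufb8 held in 12, Ndufc2 and Ndufs8 in 6 and Ndufv1 in 5 of 13 alternatives, and Ndufs8 missed the threshold without any 1 of the 6 libraries.

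Atp5b fell with time in every genotype. NT cells had 354, 389 and 352 CPM at day 11, against 491, 473 and 476 CPM at day 7. All day 11 libraries were below all day 7 libraries. The log2 fold change of Atp5b was -0.39 ± 0.07 in NT (SE, adjusted p = 1.99e-05), -0.36 in Eed KO, -0.32 in Ezh2 KO, -0.28 in Brd8 KO and -0.34 in Nr6a1 KO. It held in every alternative except 1, for Nr6a1 KO, where without replicate 1 of day 11 the adjusted p was 0.121. Ndufv3 and Atp5b were the only members that passed the threshold in all 5 genotypes. Atp5a1, the partner of Atp5b in the catalytic head, had 339, 407 and 338 CPM at day 11 and 464, 425 and 412 CPM at day 7 in NT (log2 fold change -0.26 ± 0.08 SE, adjusted p = 0.0102), and fell also in Eed, Brd8 and Nr6a1 KO. The Atp5a1 call was lost in NT without replicate 1 of either day and in Eed KO without replicate 3 of day 11 (-0.17, adjusted p = 0.126), and held in 10 of 13 alternatives in Brd8 KO and 9 of 11 in Nr6a1 KO.

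The 3 genes for the membrane ring of ATP synthase, Atp5g1, Atp5g2 and Atp5g3, encode the same mature protein. In NT cells Atp5g2 had 29.8, 29.3 and 25.7 CPM at day 11, against 46.4, 37.9 and 47.5 CPM at day 7, with no overlap (log2 fold change -0.64 ± 0.20 SE, adjusted p = 0.00905), which held in all 13 alternatives. Over all libraries Atp5g3 averaged 98.2 CPM, Atp5g2 37.8 CPM and Atp5g1 37.7 CPM. Per kilobase these were 45, 22.5 and 7.68 CPM per kb, over annotated exon lengths of 2181, 1675 and 4912 bases. Atp5g3, the most abundant by either measure, fell by 0.24 on the log2 scale (adjusted p = 0.0396) in NT and by 0.38 in Brd8 KO. The NT call of Atp5g3 held in 5 of 13 alternatives and was lost with DESeq2 and without replicate 3 of day 11 (-0.20, adjusted p = 0.144), and the Brd8 KO call held in all 13. Atp5g1 passed the threshold in Eed KO (-0.42, adjusted p = 0.006). Atp5k, the e subunit, also fell in NT (-2.0 ± 0.75, adjusted p = 0.0276), from a low level: 1.39, 0.649 and 0.302 CPM at day 11 and 2.22, 2.81 and 4.62 CPM at day 7, and its adjusted p was 0.11 without replicate 3 of NT at day 11. Atp5s, which enters the module by name, rose in Ezh2 KO (1.38 ± 0.39, adjusted p = 0.00441) and did not pass in NT (0.74 ± 0.39, adjusted p = 0.126). The difference between these changes was 0.65 ± 0.55 (adjusted p = 0.699).

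Among complexes II, III and IV, Sdhb, the iron-sulfur subunit of succinate dehydrogenase, and Sdhd fell in NT cells by 0.28 (adjusted p = 0.0134) and 0.34 (adjusted p = 0.0135) on the log2 scale. Uqcrc1, a core protein of complex III, fell by 0.36 in NT (adjusted p = 0.00438), and also in Eed KO (-0.33), Ezh2 KO (-0.28) and Brd8 KO (-0.27). Uqcrfs1 fell by 0.42 in NT (adjusted p = 0.043), a call that missed the threshold without any 1 of the 6 libraries (adjusted p up to 0.152). In NT Uqcrc1 held in 12, Sdhd in 9 and Sdhb in 8 of 13 alternatives, and without replicate 3 of day 11 Sdhd had adjusted p = 0.0694. Uqcrc1 held in 12 of 13 in Eed KO, 9 in Ezh2 KO and 7 in Brd8 KO (adjusted p up to 0.209). Cox6b2 had 4.41, 3.34 and 0 CPM at day 11, against 7.78, 7.18 and 5.13 CPM at day 7 in NT. Its log2 fold change was -1.35 ± 0.53 (SE, adjusted p = 0.0361), and without the library at 0 it was -0.80 with adjusted p = 0.145.

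The same comparison in the KO genotypes gave 1 higher and 13 lower members in Eed KO, where 41.1% of all tested genes were called (21.7% higher and 19.4% lower). It gave 3 and 3 in Ezh2 KO (39%, with 20.2% higher and 18.8% lower), 3 and 8 in Brd8 KO (40.9%, with 21.6% and 19.3%) and 1 and 4 in Nr6a1 KO (33.4%, with 16.6% and 16.8%), the last with 2 libraries a day. The count was 9 in Eed KO without replicate 3 of either day, 3 in Ezh2 KO without replicate 2 of day 11, 5 in Brd8 KO without replicate 3 of day 11 and 7 without replicate 1 of day 7, and 1 in Nr6a1 KO without replicate 1 of day 11. Across the 5 genotypes 28 of the 78 members (35.9%) passed in at least 1, against 63.8% of all tested genes. In Eed KO complex III had 4 of its 8 members lower: Uqcr10 (-0.60, adjusted p = 0.0073), Uqcrq (-0.37), Uqcrfs1 (-0.46) and Uqcrc1. Ndufs1, an iron-sulfur core subunit of complex I, also fell there (-0.46, adjusted p = 0.0025). Ndufs1 shares exon sequence with Ino80dos and Eef1b2 on the opposite strand. Without replicate 3 of Eed KO at day 11 Uqcr10 (-0.48, adjusted p = 0.0524), Uqcrfs1 (-0.29, adjusted p = 0.214) and Ndufs1 (-0.28, adjusted p = 0.0513) missed the threshold. Uqcrq did so without replicate 1 of day 11 and Uqcrc1 without replicate 2 of day 7. Cox7c fell in Eed KO (-0.46, and -0.38 with adjusted p = 0.118 without replicate 3 of day 11) and in Brd8 KO (-0.61), while Atp5e, the ε subunit, rose in Brd8 KO (0.49, adjusted p = 0.0187), which held in 9 of 13 alternatives. The deposited values of Cox7c held a fraction in all 41 libraries.

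At day 7 no member passed the threshold in any KO against NT. The share of all tested genes called was 8.66% in Eed KO (2.9% higher and 5.76% lower), 0.151% in Ezh2 KO (0.0855% and 0.0658%), 4.75% in Brd8 KO (1.3% and 3.45%) and 0.145% in Nr6a1 KO, all of them higher. At an unadjusted p under 0.05 the members numbered 4, 8, 6 and 4 in that order. The share of all tested genes at that unadjusted threshold is not given here, so these and later such counts are not read as a result. DESeq2 called 0 in Eed, Ezh2 and Nr6a1 KO and 1 in Brd8 KO. For Eed KO the 95% interval of the fold change lay within 1.5-fold for 71.8% of the members, against 44.0% of all tested genes. At day 9 Eed KO had 1 member higher (5.14% of all tested genes called, 2.99% higher and 2.16% lower), and Brd8 KO 2 higher and 1 lower (15.5%, with 7.72% higher and 7.81% lower). The Brd8 KO count was 1 without either Brd8 KO library or without replicate 1 of NT. Ezh2 KO and Nr6a1 KO had 0 members called, at 0% and 0.151% of all tested genes (in Nr6a1 KO 0.138% higher and 0.0132% lower), with 3 and 1 members at an unadjusted p under 0.05 and 0 by DESeq2 in each.

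The member that rose in Eed KO at day 9 was Atp5g2, with 48.4, 54.5 and 42.7 CPM in Eed KO, against 32.3, 30.8 and 23.1 CPM in NT. The groups did not overlap, and the log2 fold change was 0.75 ± 0.20 (SE, adjusted p = 0.021). Without replicate 3 of NT, the lowest library, or without either of 2 Eed libraries, Atp5g2 missed the threshold, with adjusted p up to 0.158. In Brd8 KO at day 9 Sdhd had 52.9 and 57.4 CPM, against 38.3, 42.2 and 41.2 CPM in NT (log2 fold change 0.44 ± 0.12, adjusted p = 0.0117). Ndufc2 had 32.9 and 30.3 CPM in Brd8 KO, against 19.7, 20.8 and 23.0 CPM in NT (0.58 ± 0.16, adjusted p = 0.0096). Cox7b, an X-linked complex IV subunit, was lower, with 39.5 and 41.5 CPM in Brd8 KO, against 52.9, 51.6 and 54.1 CPM in NT (-0.38 ± 0.14, adjusted p = 0.0499). None of the 3 overlapped NT. Sdhd missed the threshold without replicate 2 of Brd8 KO or replicate 1 of NT, and Ndufc2 without either Brd8 KO library, with adjusted p up to 0.161 and 0.0823, and Cox7b missed it in 8 of 12 alternatives, among them the removal of any library compared, with adjusted p up to 0.205.

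At day 11 a few members of complexes II to V were higher in KO cells. Brd8 KO had 9 higher and 0 lower, with 17.8% of all tested genes called, 10.3% higher and 7.48% lower. Ezh2 KO had 3 higher and 0 lower (7.91% of all tested genes, 5.22% higher and 2.7% lower), and Eed KO 3 higher and 1 lower (24%, with 13.3% higher and 10.6% lower). In Nr6a1 KO 0 members were called (0.0789% of all tested genes, 0.0526% higher and 0.0263% lower), with 2 at an unadjusted p under 0.05 and 0 by DESeq2. All 4 comparisons share the NT libraries of day 11, so their calls are not independent of one another. Without the low-agreement libraries of NT and Eed KO the counts were 1 in Brd8 KO, 0 in Ezh2 KO and 1 in Eed KO. Brd8 KO had 1 without replicate 3 of NT and 3 to 5 without any 1 of its own libraries. Ezh2 KO had 0 without replicate 3 of NT or its own replicate 2, 1 without its own replicate 3 and 6 without replicate 1 of NT. Eed KO had 2 without its own replicate 1.

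**Figure D3:**
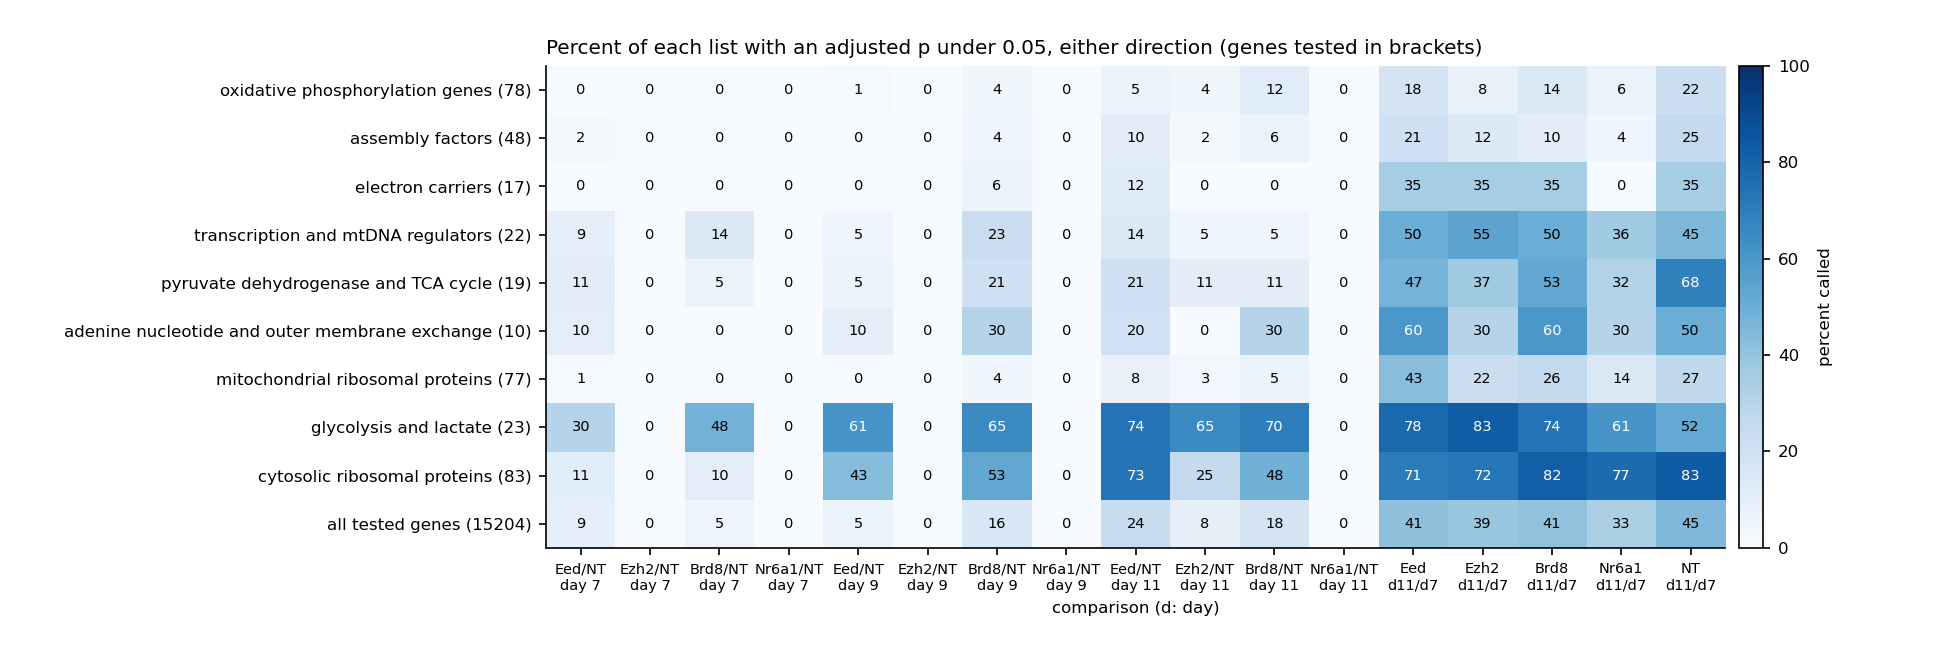
Percentage of the tested genes of each list (rows) that passed the threshold in either direction in each comparison of a KO with NT of the same day and of day 11 with day 7 (columns); darker cells mean more genes. At day 11 the lists of glycolysis and of cytosolic ribosomal proteins are dark in Eed and Brd8 KO, and the oxidative phosphorylation row is paler than the row of all tested genes, which stands at 24% in Eed KO, 7.91% in Ezh2 KO and 17.8% in Brd8 KO.

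Sdhb was the member whose difference in Brd8 KO held in all 13 alternatives. It had 70.1, 77.1 and 73.5 CPM in Brd8 KO at day 11, against 62.6, 52.2 and 53.6 CPM in NT. Every Brd8 KO library was above every NT library, and the log2 fold change was 0.39 ± 0.09 (SE, adjusted p = 0.00217), with a range of 0.34 to 0.48 over the alternatives. In Ezh2 KO, Sdhb had 68.5, 75.1 and 69.0 CPM (0.34 ± 0.09, adjusted p = 0.0161); there it held in 7 of 13 alternatives and missed the threshold without replicate 2 of Ezh2 KO or replicate 2 or 3 of NT, with adjusted p up to 0.123. Eed KO had 64.2, 64.4 and 60.9 CPM and Nr6a1 KO 67.6 and 71.1 CPM of Sdhb, with log2 fold changes of 0.17 (adjusted p = 0.188) and 0.30 (adjusted p = 0.298). At day 7 Brd8 KO had 66.8, 60.2 and 69.6 CPM and NT 71.7, 61.2 and 71.0 CPM, which overlapped. The effect of Brd8 KO on Sdhb was larger at day 11 than at day 7 by 0.44 ± 0.13 on the log2 scale (SE, adjusted p = 0.0403), and this was the only such difference called in the module, where 4.55% of all tested genes were called for Brd8 (2.98% higher and 1.57% lower). This difference held in 8 of 19 alternatives, with values of 0.38 to 0.53 and adjusted p up to 0.142, and missed the threshold without any 1 of 8 of the 12 libraries it compares. For Eed, Ezh2 and Nr6a1 KO 0 members differed in effect between these days, at 6.32%, 1.41% and 0.112% of all tested genes, with 2, 3 and 0 members at an unadjusted p under 0.05 and 0 by DESeq2 in each. The gene lies at chr4:140961203-140979193 on the plus strand, with no overlapping exon of another gene.

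The membrane anchor Sdhd had 47.0, 46.3 and 41.8 CPM in Eed KO, 42.1, 44.7 and 43.3 CPM in Ezh2 KO, 41.5, 47.6 and 44.3 CPM in Brd8 KO, 40.2 and 40.8 CPM in Nr6a1 KO, and 40.5, 34.2 and 31.5 CPM in NT at day 11. All Eed, Ezh2 and Brd8 KO libraries were above all NT libraries. Sdhd passed in Eed KO (log2 fold change 0.35 ± 0.11 SE, adjusted p = 0.0241) and Brd8 KO (0.33 ± 0.12, adjusted p = 0.0426) and not in Ezh2 KO (0.29, adjusted p = 0.117). Without replicate 3 of NT the values for Sdhd were 0.27 (adjusted p = 0.139) in Eed KO and 0.25 (adjusted p = 0.206) in Brd8 KO. Each call held in 6 of 13 alternatives. The remaining subunits of complex II did not pass in any KO: Sdha, the flavoprotein, had 77.7, 84.1 and 68.7 CPM in Brd8 KO and 74.2, 96.1 and 75.7 CPM in NT at day 11, and Sdhc, the other anchor, had 82.7, 96.9 and 87.6 CPM in Brd8 KO and 73.6, 81.0 and 73.2 CPM in NT.

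**Figure D4:**
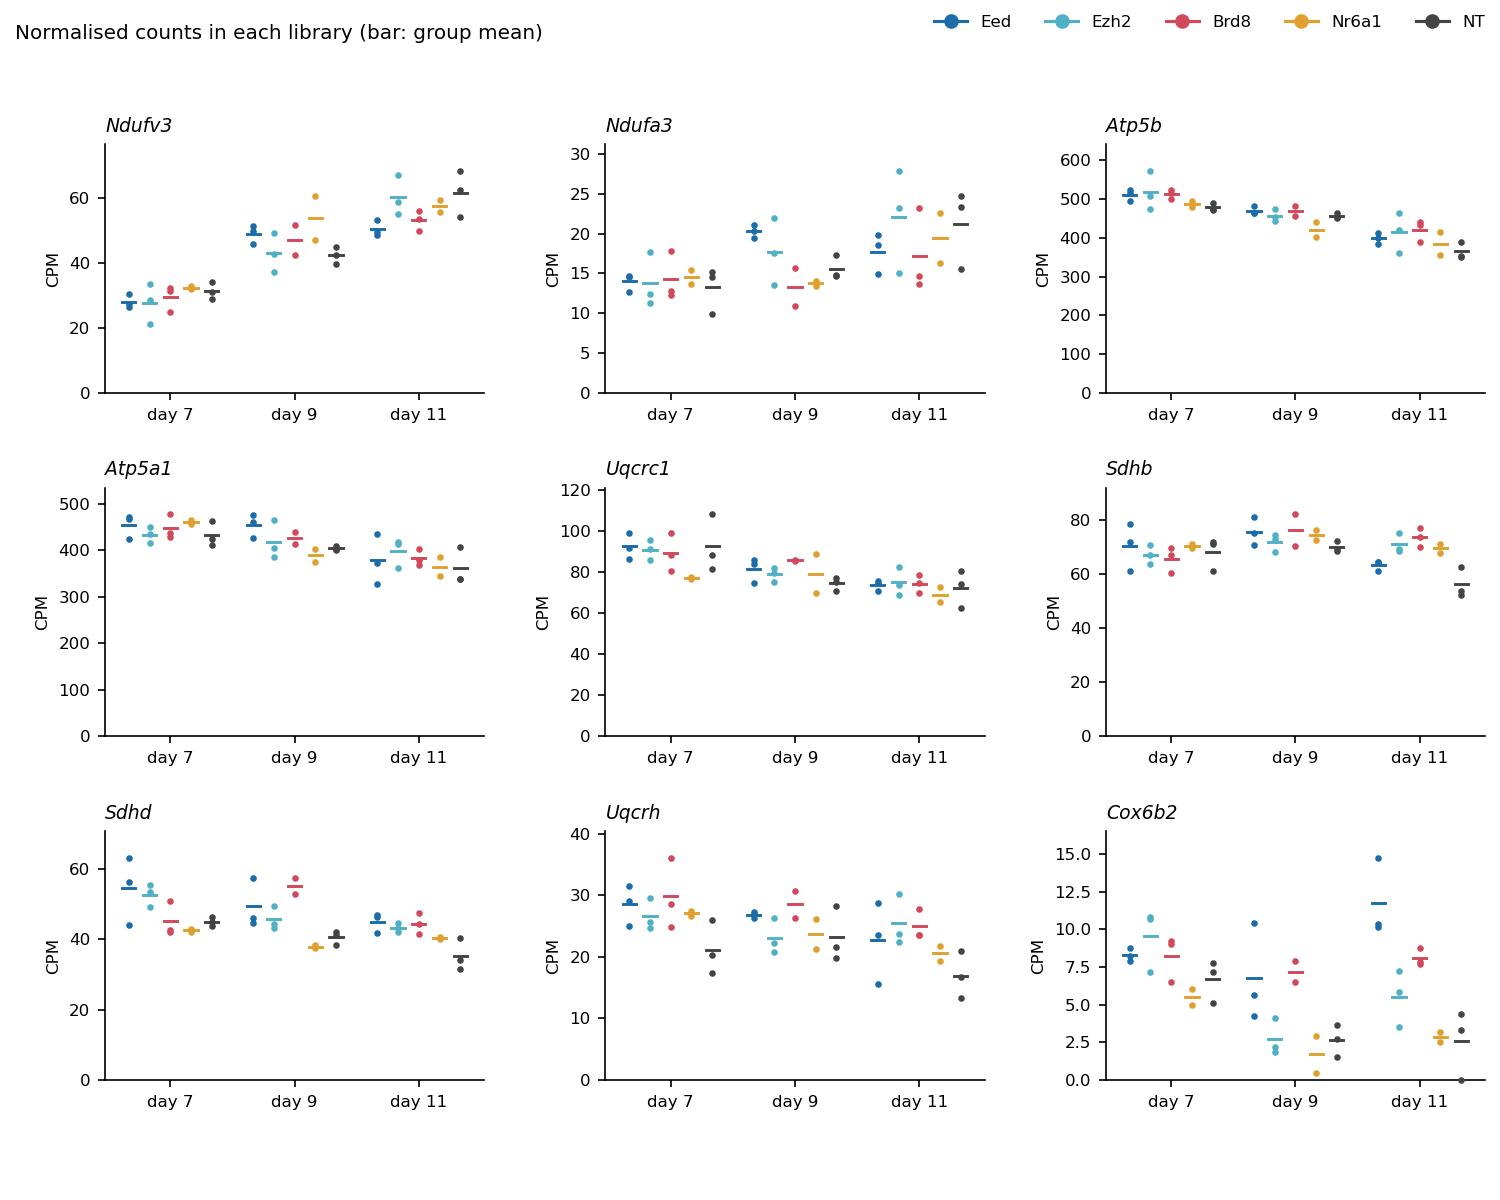
CPM of 9 members in each library by day and genotype (points are libraries, bars the group mean). At day 11 all Brd8 KO libraries of Sdhb lie above the NT libraries, Cox6b2 is highest in Eed KO, and Ndufv3 and Atp5b move with the day in every genotype.

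In complex III, Uqcrh, the acidic hinge protein, had 22.5, 23.7 and 30.2 CPM in Ezh2 KO, 23.5, 27.8 and 23.5 CPM in Brd8 KO and 16.6, 20.9 and 13.3 CPM in NT at day 11. Neither KO overlapped NT. The log2 fold changes of Uqcrh were 0.59 ± 0.19 (SE, adjusted p = 0.0416) and 0.56 ± 0.19 (adjusted p = 0.0339) in that order, and without replicate 3 of NT 0.45 (adjusted p = 0.249) and 0.41 (adjusted p = 0.197). Each held in 7 of 13 alternatives. Uqcrc2, a core protein, rose in Eed KO (0.30, adjusted p = 0.032) and Brd8 KO (0.32, adjusted p = 0.0272). It shares exon sequence with Pdzd9 on the opposite strand, and whether the counting used strand is not given in the sources used here. In Eed KO the Uqcrc2 libraries overlapped those of NT, and the call held in 6 of 13 alternatives, with 0.16 (adjusted p = 0.449) without the low-agreement libraries. Uqcrb rose in Brd8 KO (0.51, adjusted p = 0.0316), with overlapping groups. Without replicate 3 of NT Uqcrc2 in both KO genotypes and Uqcrb missed the threshold, and adjusted p for Uqcrb reached 0.394 over the alternatives.

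In complex IV the largest difference was in Cox6b2. It had 10.3, 14.8 and 10.2 CPM in Eed KO, 3.51, 7.20 and 5.84 CPM in Ezh2 KO, 7.85, 8.73 and 7.70 CPM in Brd8 KO, 3.18 and 2.55 CPM in Nr6a1 KO, and 4.41, 3.34 and 0 CPM in NT at day 11. Eed KO and Brd8 KO did not overlap NT. The log2 fold change of Cox6b2 was 2.15 ± 0.53 in Eed KO (SE, adjusted p = 0.00242) and 1.62 ± 0.53 in Brd8 KO (adjusted p = 0.0292). Without the NT library at 0 it was 1.59 in Eed KO (adjusted p = 0.00928) and 1.06 in Brd8 KO (adjusted p = 0.115), where the call was also lost without any 1 of the 3 Brd8 KO libraries, and with only the compared groups in the fit the adjusted p in Eed KO was 0.0735. At day 9 the groups were also apart in Eed KO, with 5.63, 4.25 and 10.4 CPM against 1.56, 3.62 and 2.75 CPM in NT (1.33 ± 0.52, adjusted p = 0.136), and in Brd8 KO, with 6.49 and 7.91 CPM (1.43 ± 0.57, adjusted p = 0.0816), and neither passed the threshold. Its coordinates are chr7:4751792-4753094 on the minus strand, with no overlapping exon of another gene.

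Cox7c rose in Ezh2 KO (0.55 ± 0.17 SE, adjusted p = 0.0411) and Cox8a in Brd8 KO (0.33 ± 0.12, adjusted p = 0.0489), both with overlapping groups. The deposited values of Cox7c held a fraction in all 41 libraries, and how shared reads were counted is not given in the sources used here. In complex V, Atp5b had 442, 433 and 391 CPM in Brd8 KO, against 354, 389 and 352 CPM in NT (0.21 ± 0.07, adjusted p = 0.0401), and Atp5c1, the γ subunit of the rotating stalk, had 83.2, 84.8 and 79.4 CPM, against 74.2, 62.8 and 63.4 CPM in NT (0.30 ± 0.10, adjusted p = 0.0271). Both stood above all NT libraries. Cox7c held in 7, Cox8a and Atp5c1 in 6 and Atp5b in 5 of 13 alternatives, and all 4 missed the threshold without replicate 3 of NT. The single lower member was Ndufa5, an accessory subunit of complex I, with 3.39, 4.92 and 2.73 CPM in Eed KO, against 5.42, 12.2 and 5.03 CPM in NT (-1.03 ± 0.39, adjusted p = 0.0464). Without the highest NT library, replicate 2, Ndufa5 had a log2 fold change of -0.50 (adjusted p = 0.399). No other member of complex I passed in any KO at day 11.

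Over the 12 comparisons of a KO with NT, 14 of the 78 tested members (17.9%) passed at least once and 64 never did, against 36% of all tested genes that passed at least once. Over all 21 comparisons, including those over time, 43 members passed in none, and 68.9% of all tested genes passed at least once. The median log2 fold change at day 11 was 0.09 in Eed KO, 0.15 in Ezh2 KO, 0.14 in Brd8 KO and 0.07 in Nr6a1 KO over the members, and 0.02, 0.03, 0.02 and 0.03 over all tested genes. The module's sum at day 11 was 3424 ± 178 CPM in Eed KO, 3589 ± 258 CPM in Ezh2 KO, 3558 ± 238 CPM in Brd8 KO, 3363 ± 240 CPM in Nr6a1 KO (n = 2) and 3233 ± 231 CPM in NT (SD, n = 3 unless given). The ranges of the sums in Eed, Ezh2 and Brd8 KO overlapped that of NT, which ran from 3014 to 3475 CPM.

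Cell cycle and cell type markers moved with the same groups. The 8 cell cycle markers summed to 1350 to 1621 CPM in Eed KO, 1071 to 1285 CPM in Ezh2 KO, 1183 to 1528 CPM in Brd8 KO, 718 to 929.5 CPM in Nr6a1 KO and 731 to 756 CPM in NT at day 11, and 8, 7, 8 and 0 of the 8 passed as higher in these KO genotypes. In NT the sum of these markers was 744 CPM at day 11 and 2386 CPM at day 7, that of the 10 glial markers 2713 and 191 CPM, and that of the 10 neuron markers 5296 and 4170 CPM. Ptprz1 alone made up 2218 CPM of the glial sum at day 11. Among the neuron markers Map2 had 1210 CPM at day 11 and 386 CPM at day 7. Nefl went the other way (405 and 634 CPM), as did Nefm, Elavl4 and Tubb3. The 10 glial markers summed to 901 CPM in Eed KO, 1504 CPM in Ezh2 KO, 1176 CPM in Brd8 KO, 2974 CPM in Nr6a1 KO and 2713 CPM in NT, and 6, 3, 4 and 0 of the 9 tested passed as lower. Sox10 stood the other way at day 11, with 119 CPM in Eed KO, 176 CPM in Brd8 KO and 98.9 CPM in NT. Of the 11 muscle markers 9, 7, 9 and 1 passed as higher, and Tnni1 was at 0 in all NT libraries of day 11. Of the 6 epithelial markers 4 passed as higher in Eed KO and 1 in Ezh2 KO, with Krt4 at 0 in NT and Brd8 KO. The part of these marker groups in the module's differences was not tested.

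Other lists had larger shares called at day 11. Of 23 tested genes of glycolysis and lactate metabolism, 15 were higher and 2 lower in Eed KO, 14 and 1 in Ezh2 KO, 14 and 2 in Brd8 KO and 0 and 0 in Nr6a1 KO. Gapdh, a central enzyme of the pathway, had log2 fold changes of 0.76 in Eed KO, 0.68 in Ezh2 KO and 0.76 in Brd8 KO. Of 83 cytosolic ribosomal protein genes, 61, 21, 40 and 0 were higher in Eed, Ezh2, Brd8 and Nr6a1 KO and 0 lower. Fewer genes were called in the other mitochondrial lists: of 77 mitochondrial ribosomal protein genes 6, 2, 4 and 0 were higher and 0 lower, and of 19 genes of pyruvate dehydrogenase and the tricarboxylic acid (TCA) cycle 3, 2, 2 and 0 were higher.

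Of 48 assembly factors, 3 were higher and 2 lower in Eed KO, 1 and 0 in Ezh2 KO, 2 and 1 in Brd8 KO and 0 in Nr6a1 KO. Cox18, which inserts part of a complex IV core subunit into the membrane, had log2 fold changes of 1.44 in Eed KO (adjusted p = 0.00203), 1.19 in Ezh2 KO (adjusted p = 0.0254) and 1.42 in Brd8 KO (adjusted p = 0.00326). Without the low-agreement libraries Cox18 had 0.79 (adjusted p = 0.101) in Eed KO, 0.75 (adjusted p = 0.17) in Ezh2 KO and 0.97 (adjusted p = 0.0274) in Brd8 KO, and the Ezh2 KO call held in 8 of 13 alternatives. Cox15, needed for heme A, was higher in Eed KO (0.50) and Brd8 KO (0.48), and Surf1, a complex IV assembly factor, was lower in Brd8 KO (-0.94, adjusted p = 0.0221). Among 22 regulators of transcription and mitochondrial DNA, Gabpb1, a partner of the ETS factor Gabpa, was higher in Eed KO (0.40, adjusted p = 0.00214) and Brd8 KO (0.38, adjusted p = 0.00465). Esrrb was higher in Eed KO (0.87, adjusted p = 0.0379) and Ezh2 KO (1.06, adjusted p = 0.0251), and Tfb1m in Eed KO (0.68, adjusted p = 0.0385), all in edgeR's quasi-likelihood test. These 3 calls held in 8, 9 and 6 of 13 alternatives. Of the 17 electron carriers 1 was higher, Coq6, and 1 lower, Coq10b, both in Eed KO, and they held in 11 and 5 of 13 alternatives.

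Over time in NT cells more genes were called lower than higher in each of these lists but glycolysis, against 23.3% lower and 21.9% higher over all tested genes. Of the TCA list 12 of 19 fell and 1 rose, with citrate synthase Cs at -0.40 (adjusted p = 4.41e-06) and Idh2 at -0.55. Of the electron carriers 6 of 17 fell and 0 rose, with cytochrome c, Cycs, at 101 ± 8.14 CPM at day 11 and 132 ± 8.16 CPM at day 7 (SD, n = 3 each, log2 fold change -0.39, adjusted p = 0.000969). Cytosolic ribosomal protein genes had 69 of 83 lower and 0 higher. In the mitochondrial ribosomal protein genes (20 of 77 lower and 1 higher) and the assembly factors (9 of 48 lower and 3 higher) the share lower was near that of all tested genes, with Cox10, which makes heme O, at -0.93. Of the regulators 7 fell and 3 rose. Pprc1, a coactivator related to PGC-1α, fell (-1.08), and Esrrg, an estrogen-related receptor, rose (1.34). Glycolysis had 7 genes higher and 5 lower: the glucose transporter Slc2a1 fell (-2.43), while Ldhb (1.22) and Aldoc (4.14) rose. Ckb, brain creatine kinase, had 1076 CPM at day 11 and 273 CPM at day 7.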

How the data were processed

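Total RNA of 41 libraries was sequenced after ribodepletion with a directional kit, per the labels' protocols, although the labels call the molecule genomic DNA. The values used are the estimated counts per gene symbol that the authors deposited as raw counts. Of these values 2.95% (29525) were not whole and were rounded. Per the submitters' processing notes, mm10 and DESeq2 were used. Which aligner, counting tool and annotation were used, whether strand was used in counting and how reads shared with pseudogenes were counted is not given in the sources used here.

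Samples were grouped by guide and day from their titles. Counts were filtered with filterByExpr, scaled by TMM and fitted with 1 mean per group over all 41 libraries in edgeR 4.0.16 (R 4.3.3), with quasi-likelihood tests, two-sided, adjusted by Benjamini and Hochberg over 15204 genes within each of 21 comparisons, and a threshold of 0.05. The common biological coefficient of variation was 0.182. The 21 comparisons are 12 of a KO with NT of the same day, 5 of day 11 with day 7 and 4 of a KO effect between those days. Nothing in the labels says that replicates came from separate differentiations, so p-values measure the spread between these samples, which may be technical. Gene positions and exon lengths are from GENCODE on GRCm38, with 83 of 84 members matched. Of these, 28 share exon sequence with another gene. Among the members named for a difference these are Atp5a1, Atp5g2, Ndufa3, Ndufb8, Ndufs1, Uqcrb and Uqcrc2. The code was tested on simulated counts.

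Members and lists were chosen with earlier results of these data known. Named members are the targets, up to 4 per comparison and direction with the smallest adjusted p, restricted isoforms with their partners, the highest of each complex per kilobase and the 4 Sdh genes, and up to 3 genes of each other list per comparison. Ndufs1, Uqcr10, Uqcrq and others beyond that were named after their values were seen. Alternatives were DESeq2 1.42.0 size factors and Wald test, no count filter, a replicate block, fits of the compared groups alone, each library left out, the low-agreement libraries left out and Rn45s removed. Single-gene results for some items are not reported here.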

Additional observations from a re-analysis of the deposited data

Results flagged for a closer look

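Sdhb, the iron-sulfur subunit of succinate dehydrogenase, was the 1 member in which the effect of a KO differed between day 11 and day 7. The effect of Brd8 KO was 0.39 at day 11 and -0.05 at day 7 on the log2 scale, a difference of 0.44 ± 0.13 (SE, adjusted p = 0.0403, edgeR's quasi-likelihood test of the interaction). Sdhb was higher in all 3 Brd8 KO libraries than in all 3 NT libraries at day 11. The same difference for Sdhb was 0.12 in Eed KO (adjusted p = 0.695), 0.35 in Ezh2 KO (adjusted p = 0.19) and 0.26 in Nr6a1 KO (adjusted p = 0.717). Without replicate 3 of NT at day 11 the difference in Brd8 KO was 0.41 with adjusted p = 0.094. No group had 4 or more libraries, so libraries were not screened for outlying values.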

How the results depend on the processing

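Of the 74 calls of a member in a comparison, 15 held in every alternative and 0 reversed. The count at day 7 in Brd8 KO was 0 as reported, 1 with the DESeq2 Wald test, 2 with only the compared groups in the fit and 1 without the low-agreement libraries. In Eed KO at day 9 the count of 1 was 3 with no count filter and 2 without the low-agreement libraries. At day 11 the compared groups alone gave 0 in Eed KO, 0 in Ezh2 KO and 1 in Brd8 KO, and leaving out the low-agreement libraries gave 1, 0 and 1. Over time NT had 10 and Brd8 KO 7 with only the compared groups, Brd8 KO 7 with no filter, and Ezh2 KO 11 without the low-agreement libraries. The differences between days were 1 in Eed KO and 1 in Ezh2 KO with no filter, and 0 in Brd8 KO with no filter, with only the compared groups and without the low-agreement libraries. Fits of the compared groups alone rest on fewer samples; other causes were not tested.

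Leaving out 1 library at a time gave 0 to 1 members in Eed KO and in Brd8 KO at day 7, 0 to 1 in Eed KO and 1 to 2 in Brd8 KO at day 9, and 2 to 6 in Eed KO, 0 to 6 in Ezh2 KO, 1 to 9 in Brd8 KO and 0 to 1 in Nr6a1 KO at day 11. Over time it gave 8 to 17 in NT, 9 to 14 in Eed KO, 3 to 8 in Ezh2 KO, 5 to 12 in Brd8 KO and 1 to 5 in Nr6a1 KO. The differences between days gave 0 to 1 in Eed KO, 0 to 1 in Ezh2 KO and 0 to 2 in Brd8 KO, and the remaining comparisons stayed at 0. Where a group kept 1 library, it was assumed to vary like the others. The number of all tested genes called moved too. At day 7 it was 1317 in Eed KO and 722 in Brd8 KO as reported, and 707 to 1278 and 233 to 900 with 1 library left out. For Eed KO at day 9 it was 782, and 86 to 1399. At day 11 it was 3643 in Eed KO, 1203 in Ezh2 KO and 2699 in Brd8 KO, and 2887 to 3500, 702 to 1177 and 1941 to 2624. Over time in NT it was 6868, and 6054 to 6526.

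Deviations of libraries with the same replicate number from their group means had correlations of -0.03 to 0.0798 in 17 comparisons. With group means taken over 2 or 3 libraries, these correlations cannot show whether the numbers pair the samples. With the replicate block the counts were 2 in Brd8 KO at day 9, 4, 3 and 9 in Eed, Ezh2 and Brd8 KO at day 11, and 17, 13, 7, 12 and 5 over time in NT, Eed, Ezh2, Brd8 and Nr6a1 KO. Other scalings moved the median of all genes by at most 0.0675 on the log2 scale. Depth limits the members of a few CPM: in replicate 3 of NT at day 11 Atp5k was at the floor of 3 counts and Cox6b2 at 0. Atp5k was also under that floor, at 0.0987 CPM, in the lowest Brd8 KO library of day 11.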
